A study of Mus musculus with 20 samples.

Results

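Among 9 single mouse blood stem and progenitor cells sorted as CD150+CD48-, the 4 with the highest share of reads from the helicase genes Mcm2, Mcm3, Mcm4, Mcm5, Mcm6 and Mcm7 and the clamp gene Pcna were set against the other 5. They are called MCM-high and MCM-low cells here, after the rule that chose them. The series holds 20 cells of C57BL/6J bone marrow, each 1 sample, profiled with Quartz-Seq, a method that copies and amplifies the polyadenylated RNA of a cell. All carry the surface phenotype lineage-negative and cKit-positive, a compartment of stem and progenitor cells. The 9 cells were also CD150-positive and CD48-negative, a combination used to enrich long-term stem cells, and the other 11 were CD150-negative (CD150- cells) and serve as a reference that the rule did not use. No treatment, age or genotype beyond the strain is given in the labels, and no animal is named, so cells are not replicates, each set counts as 1 sample, and no test was made. Intervals below are 95% intervals that cover counting error of reads only, and since reads are PCR copies without molecular identifiers they do not cover amplification.

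A cell that prepares to copy its DNA loads a ring of MCM proteins on each origin of replication, helped by the origin recognition complex and Cdt1, and geminin later blocks a repeat of that loading. In S phase the ring becomes the moving helicase, PCNA clamps the polymerases to DNA, and enzymes of nucleotide synthesis supply the building blocks. Transcription of many of these genes is driven by E2F factors once the RB proteins release them. Adult blood stem cells divide rarely and spend most of their time in quiescence, a state with low MCM and cyclin transcript levels in which the CDK inhibitor p57, the product of Cdkn1c, is known as a brake.

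The values that chose the cells are a description and no finding. Of all gene reads, the 7 ranking genes took 0.843% in cell B9, 0.674% in B4, 0.558% in A8 and 0.364% in A10, against 0.171% in A11, 0.158% in B11, 0.138% in B3, 0.0358% in B12 and 0.0185% in A3. The codes are those of the cell titles. A10 was the lowest cell inside the threshold and A11 the highest outside it, with a gap between them. The same 4 cells led when Pcna was left out of the sum. In the 11 CD150- cells the share was 0.549% to 0.848% in 7 cells and 0.0446% to 0.119% in the other 4, so these fell on either side of the same gap.

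**Figure D1:**
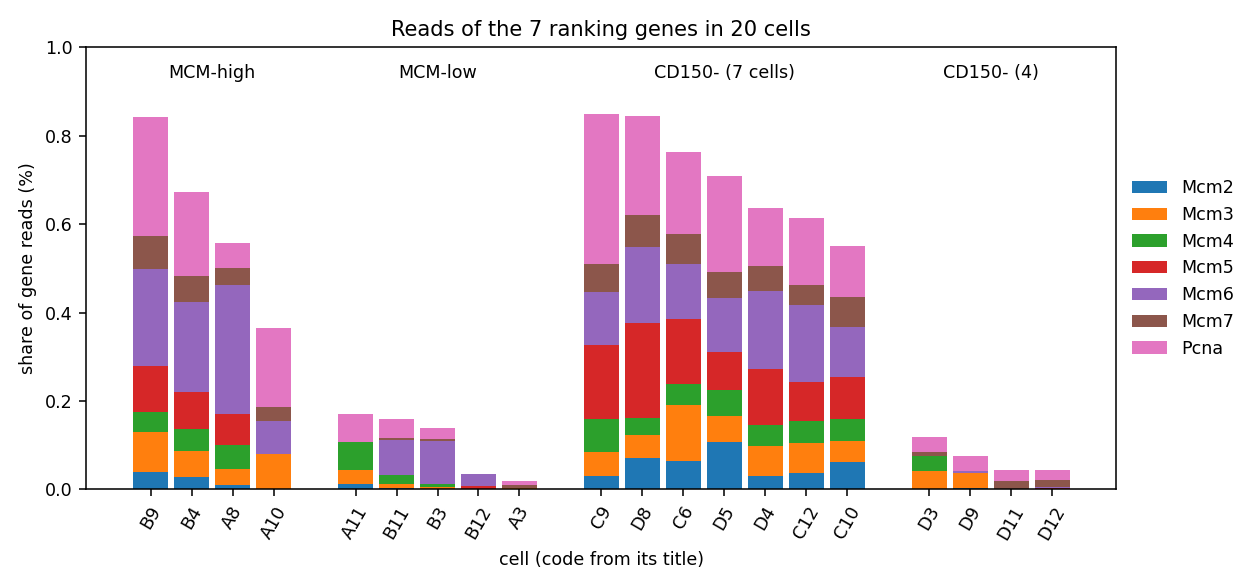
Share of gene reads (%) taken by each of the 7 ranking genes (stacked colours) in each of the 20 cells, all reads. The 4 MCM-high cells reach 0.364% to 0.843% and the 5 MCM-low cells at most 0.171%, and the column of A10 has no Mcm2 and no Mcm5.

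By the 7 ranking genes, a label of a replicating and a resting set did not describe every cell. These genes chose the sets, so their levels cannot support the label for the other cells. B9, B4 and A8 had at least 10 CPM (reads scaled by the total of gene reads) of all 7 ranking genes. A10 had that level of 4: Mcm3 at 808 CPM, Mcm6 at 745 CPM, Mcm7 at 317 CPM and Pcna at 1768 CPM, with Mcm4 at 1.52 CPM and no read of Mcm2 or Mcm5. Among MCM-low cells, 2 to 6 of the 7 genes reached it, so none was free of them. A10 also had few reads of other replication genes, and each main result is therefore given with and without it, a choice made after its values were seen. Cdkn1c did not separate the sets, with 124 CPM in B9, 47.0 in A10, 40.9 in B11, 142 in B12 and 0 in the other 5 cells. It had a read in 2 of 4 MCM-high cells, in 2 of 5 MCM-low cells and in none of the 11 CD150- cells.

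Library measures differed between the cells and partly between the sets. Gene reads ranged from 660007 to 3722713 in MCM-high cells (median 990597) and from 845194 to 3699145 in MCM-low cells (median 2604834), so every cell was thinned to 660007 gene reads, where 1 read is 1.52 CPM. At that depth 4764 to 8378 genes were detected in MCM-high and 5072 to 8703 in MCM-low cells. Unaligned reads were 80.2% in A10 and 66.2% in A11, the highest of either set. Gene reads per read of the ERCC spike-in RNA were 43.1 to 109 (median 92.3) in MCM-high and 22.3 to 85.9 (median 65.2) in MCM-low cells. The part of these measures in the differences below was not tested. Both sets hold cells of both letters, A8 and A10 against A11 and A3, and B9 and B4 against B11, B3 and B12. Their meaning is unknown here.

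Across 8312 genes with at least 10 thinned reads over the 9 cells and a read in at least 3 of them, 1153 (13.9%) had a mean level at least 4-fold higher in MCM-high cells and 1519 (18.3%) at least 4-fold lower, on the log2(CPM + 1) scale. Such differences were common among single cells. Without A10 the counts were 1182 (14.2%) and 1659 (20%). A stricter measure is that the ranges of the sets do not overlap, which 1 cell cannot bring about. By it 34 genes (0.409%) were higher in every MCM-high cell than in any MCM-low cell and 37 (0.445%) lower, and without A10 these were 197 (2.37%) and 61 (0.734%). Any split of the 9 cells leaves some genes without overlap, and the number to be expected was not computed. These counts alone therefore do not show a difference between the sets. Fewer cells make non-overlap easier, and this holds as well for the list ranges given without A10 below. Leaving out any 1 of the 9 cells gave 44 to 197 genes higher and 46 to 90 lower. The ranking genes are in none of these counts, but Pcna-ps2, a pseudogene copy of Pcna, is among the 34 genes that were higher. Scaling by the spike-ins moved the median log2 fold of all genes from -0.040 to 0.70, and the part of the 4-fold calls that were higher from 43.2% to 65.2%, so directions below are relative to the other genes of a cell. Averaging log2 values over cells in place of levels gave 52.8% higher.

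Genes of origin licensing and firing other than the ranking genes were higher in MCM-high cells, but in B9, B4 and A8 and not in A10. Together the 25 genes of the list took 0.430%, 0.332%, 0.167% and 0.0698% of gene reads in B9, B4, A8 and A10, and 0.0661% to 0.151% in MCM-low cells. The log2 ratio of the set means was 1.27, and 1.58 without A10, when the ranges did not overlap. It was 0.12 within letter A, where A10 is 1 of the 2 MCM-high cells, and 1.93 within letter B. Of 21 genes past the filter 11 were at least 4-fold higher (52.4%, against 13.9% of all genes) and none 4-fold lower (against 18.3%), with a median log2 fold of 2.07. All lists, this one included, were drawn up with earlier results of these data known, so their directions are no independent evidence.

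Mcm10, which joins the helicase when origins fire, had 150 CPM in B9, 908 in B4, 12.1 in A8 and 0 in A10 and in every MCM-low cell. Its mean of 267 CPM (248 to 288) was at least 294-fold higher than the floor of 3 reads over the MCM-low set. Gins3, a subunit of the GINS complex of the same helicase, had 164 and 394 CPM in B9 and B4 and no more than 3.03 CPM in the other 7 cells, A8 and A10 among them. Topbp1, an activator of origin firing, had 485, 66.7, 526 and 0 CPM in B9, B4, A8 and A10, and 31.8 and 65.2 CPM in A11 and B11. B4 passed B11 only narrowly. The licensing factor Cdt1 had 259 and 256 CPM in B9 and B4 but 3.03 in A8, 0 in A10 and at most 13.6 CPM in MCM-low cells. Its inhibitor geminin, Gmnn, had 844 and 898 CPM in B9 and B4, 3.03 in A8, 0 in A10, 192 in A3 and 0 in the other MCM-low cells. The licensing pair was thus high in B9 and B4, and A8, whose ranking share was also high, had little of either. Topbp1, Cdt1 and Gmnn were picked after their values were seen. Going the other way, Orc3, a subunit of the origin recognition complex, had a mean of 76.9 CPM in MCM-high and 171 CPM in MCM-low cells (log2 fold -1.14), and Cdc6, the loader of the MCM ring, 48.5 against 113 CPM (-1.20). The Cdc6 reads of MCM-low cells came mainly from A3, with 373 CPM, and B3, with 148 CPM.

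Because E2F factors are known to act through promoters, the sequence before the start of the genes was searched for an E2F-type octamer, TTTCGCGC, TTTGGCGC, TTTCCCGC or TTTGCCGC, on both strands. The RefSeq windows (GRCm38.p6) run from 250 bases before to 50 after a gene's start. A match was present in 704 of 27025 genes of the table (2.61%), in 4 of the 6 ranking genes with an entry (66.7%), in 8 of 20 origin genes (40%) and in 10 of 27 fork genes (37.0%). It was in 4 of 25 recombination genes (16%), 3 of 40 G2/M genes (7.5%), 2 of 29 nucleotide genes (6.90%) and none of 20 megakaryocyte genes. The share over the 8312 genes past the filter was not computed. A match was also in 2 of 9 G1 cyclin and CDK genes (22.2%) and 5 of 40 MYC and ribosome genes (12.5%). It was in 3 of 29 interferon and MHC genes (10.3%), 2 of 29 stem cell genes (6.90%) and none of 22 quiescence genes. Among the non-overlapping genes it was present in 5 of 23 that were higher (21.7%), Glyr1, Tsacc, Casp8ap2, Tsr1 and Slf1, and in 0 of 29 that were lower. Stretches of 60 bases from Mcm5 and Mcm6, which helped to rank the cells, are shown beside 3 of those 5 genes, printed 5′ to 3′ on the strand of the gene with the matching bases in capitals.
Mcm5 (chr8:75109332-75109391, plus strand): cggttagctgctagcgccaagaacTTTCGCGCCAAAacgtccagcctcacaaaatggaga
Mcm6 (chr1:128359719-128359778, minus strand): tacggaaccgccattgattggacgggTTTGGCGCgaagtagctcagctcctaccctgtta
Casp8ap2 (chr4:32615268-32615327, plus strand): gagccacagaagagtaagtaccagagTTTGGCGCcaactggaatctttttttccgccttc
Slf1 (chr13:77135469-77135528, minus strand): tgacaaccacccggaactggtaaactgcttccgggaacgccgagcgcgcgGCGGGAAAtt
Tsr1 (chr11:74897974-74898033, plus strand): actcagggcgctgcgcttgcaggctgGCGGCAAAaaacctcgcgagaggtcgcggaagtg
In the Mcm5 stretch TTTCGCGC and GCGCCAAA, the reverse complement of TTTGGCGC, overlap. A match describes these letters and is not a measured binding site. The genes of the last 3 stretches are described with their values further on.

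Genes of the replication fork and its polymerases were higher in B9, B4 and A8 as well. The 35 genes took 0.900%, 0.593% and 0.396% of gene reads in these cells, 0.0748% in A10 and 0.162% to 0.237% in MCM-low cells, so A10 was the lowest of all 9. The log2 ratio of the means was 1.38, or 1.74 without A10, with 0.30 within letter A and 2.00 within letter B. Of 30 genes past the filter 16 were at least 4-fold higher (53.3%, against 13.9% of all genes) and 1 lower (3.33%, against 18.3%). Without A10 these were 18 and 1, beside 14.2% and 20% of all genes. In A10, 3 of the 35 genes had a read, against 22 to 34 in the other MCM-high cells and 8 to 23 in MCM-low cells. The list therefore describes 3 of the 4 MCM-high cells.

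Pold2, a subunit of DNA polymerase delta, had 148, 83.3 and 445 CPM in B9, B4 and A8 and 0 in the other 6 cells. Its mean of 169 CPM (154 to 186) was at least 186-fold above the MCM-low floor. Tipin, a protein that steadies the fork, had 794, 932 and 385 CPM in these cells, 0 in A10, 244 in B11 and 1.52 or less in the other MCM-low cells. Pole, the catalytic subunit of polymerase epsilon, had 720, 426 and 403 CPM in B9, B4 and A8 and 0 in A10, yet also 158, 203 and 244 CPM in A11, B11 and A3. It thus differed in level more than in presence, with a mean ratio of 3.19 (2.84 to 3.58). Atad5, which unloads PCNA from DNA, had 71.2 and 218 CPM in B9 and B4, 1.52 CPM in B12 and 0 elsewhere. Prim2, the large primase subunit, was lower by the mean, with 23.9 against 160 CPM (log2 fold -2.69). All its MCM-low reads were in A11, at 800 CPM, and without A11 the log2 fold was 4.64. The small epsilon subunit Pole4 had 45.5 against 143 CPM, with 535 CPM in B12 alone. Tipin and Pole were picked after their values were seen.

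**Figure D2:**
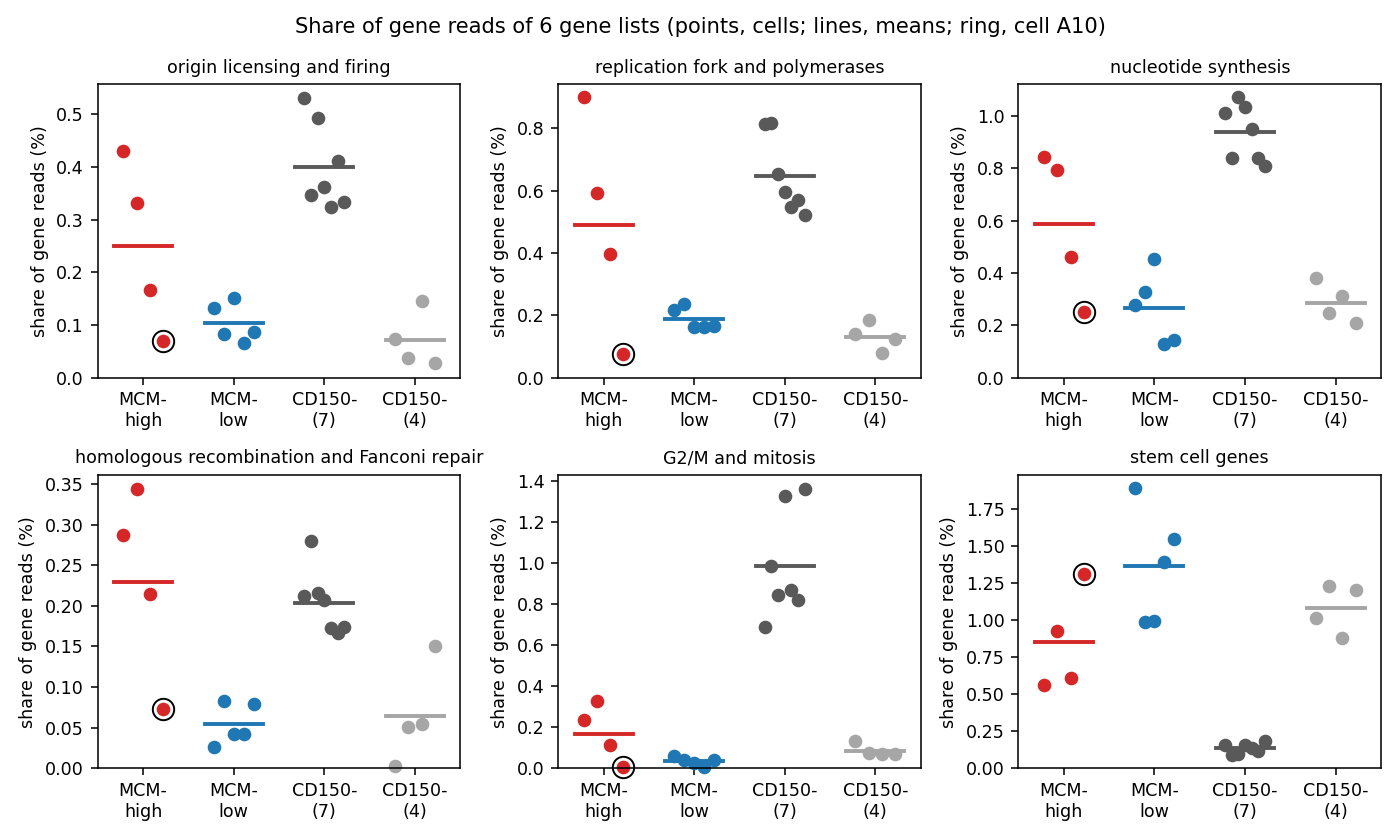
Share of gene reads (%) of 6 gene lists in MCM-high cells (red), MCM-low cells (blue) and the 7 and 4 CD150- cells with a high and a low ranking share (dark and light grey), at equal depth; points are cells, lines are means and a ring marks A10. B9, B4 and A8 lie above the MCM-low cells in the first 5 panels, A10 does not, and in G2/M genes all 9 cells lie below the 7 CD150- cells.

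Enzymes of nucleotide synthesis took 0.841%, 0.792%, 0.462% and 0.252% of gene reads in B9, B4, A8 and A10 and 0.130% to 0.454% in MCM-low cells, a log2 ratio of 1.14 (1.39 without A10, 0.76 within letter A and 1.43 within letter B). Of 29 genes past the filter, 11 were at least 4-fold higher (37.9%, against 13.9% of all genes) and 1 lower (3.45%, against 18.3%). Rrm1 (chr7:102441695-102469771), the large subunit of ribonucleotide reductase, was also high in A10, with 544, 686, 9.09 and 453 CPM in B9, B4, A8 and A10, 6.06 CPM in B11 and 0 in the other MCM-low cells. The sets did not overlap, though A8 and B11 differed by 2 thinned reads. Its partner subunit Rrm2 had 3 reads in MCM-high and 1 read in MCM-low cells, against 68.2 to 485 CPM in the 7 CD150- cells. Tk1, thymidine kinase, had 606, 9.09, 227 and 0 CPM and at most 6.06 CPM in MCM-low cells. Tyms, thymidylate synthase, had 573, 1048, 36.4 and 0 CPM, but 394 CPM in B3 kept the sets overlapping. The purine enzyme Gart was lower, with 13.3 against 37.0 CPM (log2 fold -1.41, and 0.12 under spike-in scaling), and so was the folate enzyme Mthfd1l, with 37.1 against 171 CPM, of which 820 CPM in B3 was the main source. Without B3 the Mthfd1l log2 fold was 2.03. Rrm2 and Tyms were picked after their values were seen.

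Genes of homologous recombination and Fanconi repair, which mend broken and stalled forks, took 0.288%, 0.344%, 0.214% and 0.0724% of gene reads in B9, B4, A8 and A10. In MCM-low cells they took 0.0258% to 0.0827%, and the log2 ratio was 2.08 (2.37 without A10, 1.44 within letter A and 2.51 within letter B). Of the 34 genes 17 passed the filter, 8 of them at least 4-fold higher (47.1%, against 13.9% of all genes) and 2 lower (11.8%, against 18.3%). Chek1, the kinase that holds the cycle when forks stall, had 341, 503, 276 and 0 CPM and, in the MCM-low set, 39.4 CPM in A11 and 0 elsewhere. That is a mean ratio of 35.5 (24.1 to 54.8). Brca2, a mediator of homologous recombination, had 117, 767, 373 and 0 CPM, with 42.4 and 40.9 CPM in B11 and B3, and was picked after its values were seen. Mre11a, a nuclease that trims breaks, had a high mean through B9 alone, at 474 CPM, with 1.52 CPM or less in the other 8 cells. Its partner Nbn had 13.3 against 78.5 CPM (log2 fold -2.48), and Atrip, the partner of the ATR kinase, 2 reads against 33 reads (ratio of MCM-low to MCM-high 13.2, 3.38 to 114). Chek1 and Brca2 therefore set B9, B4 and A8 apart, and the Mre11a value rests on 1 cell.

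Genes of G2/M and mitosis had a higher share in B9, B4 and A8 but stayed far below that of cycling progenitors. Their 47 genes took 0.236%, 0.325%, 0.111% and 0.00394% in B9, B4, A8 and A10, 0.00636% to 0.0594% in MCM-low cells and 0.690% to 1.36% in the 7 CD150- cells. The log2 ratio of the sets was 2.31 (2.72 without A10, 0.22 within letter A and 3.56 within letter B). Only 14 genes passed the filter, 7 at least 4-fold higher (50%, against 13.9% of all genes) and 3 lower (21.4%, near the 18.3% of all genes). Cks1b, a small partner of CDKs, had 326, 320 and 344 CPM in B9, B4 and A8 and 0 in the other 6 cells, at least 272-fold above the floor. Ncapd2, a condensin subunit, had 65.2, 1009, 75.8 and 0 CPM and 3.03 CPM in B12. The mitotic cyclin gene Ccnb1 had 547 CPM in B4, 7.58 in B9 and 1.52 in B11, and the proliferation marker Mki67 297 CPM in B4 and at most 7.58 CPM elsewhere. Top2a, the topoisomerase that untangles copied DNA, had 135 and 162 CPM in B9 and B4 and 1.52 CPM or less in the others. B4 thus held the reads of several mitotic genes that A8 lacked. Kif23, of the midbody, had 4.55 against 46.1 CPM, with 206 CPM in A3, and the centromere histone Cenpa 0 reads against 33 reads, at least 8.80-fold lower.

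Several defining genes of the cycle were at the floor in both sets. Ccne1, which encodes the cyclin E1 that starts S phase, had no read in any of the 9 cells and 81.8 to 1570 CPM in the 7 CD150- cells. Ccna2, cyclin A2, had 2 reads in MCM-high and 1 read in MCM-low cells, against 212 to 1239 CPM in the 7. Of the 47 G2/M genes 9 had no read in any of the 9 cells, and 8 of these, Ccnb2, Plk1, Aurka, Kif2c, Birc5, Ube2c, Prc1 and Cdca3, had reads in at least 5 of the 7 CD150- cells. The chromatin assembly subunit gene Chaf1a and the factors E2f2 and Foxm1 also had none in the 9 cells. No read in the MCM-high set allows a level of up to 1.14 CPM at a floor of 3 reads. Cdk1 had 10.6 CPM in B9, 111 in B3 and 1.52 in A11, with no read in B4, A8 or A10. These genes, which did not separate the sets, were picked after their values were seen.

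**Figure D3:**
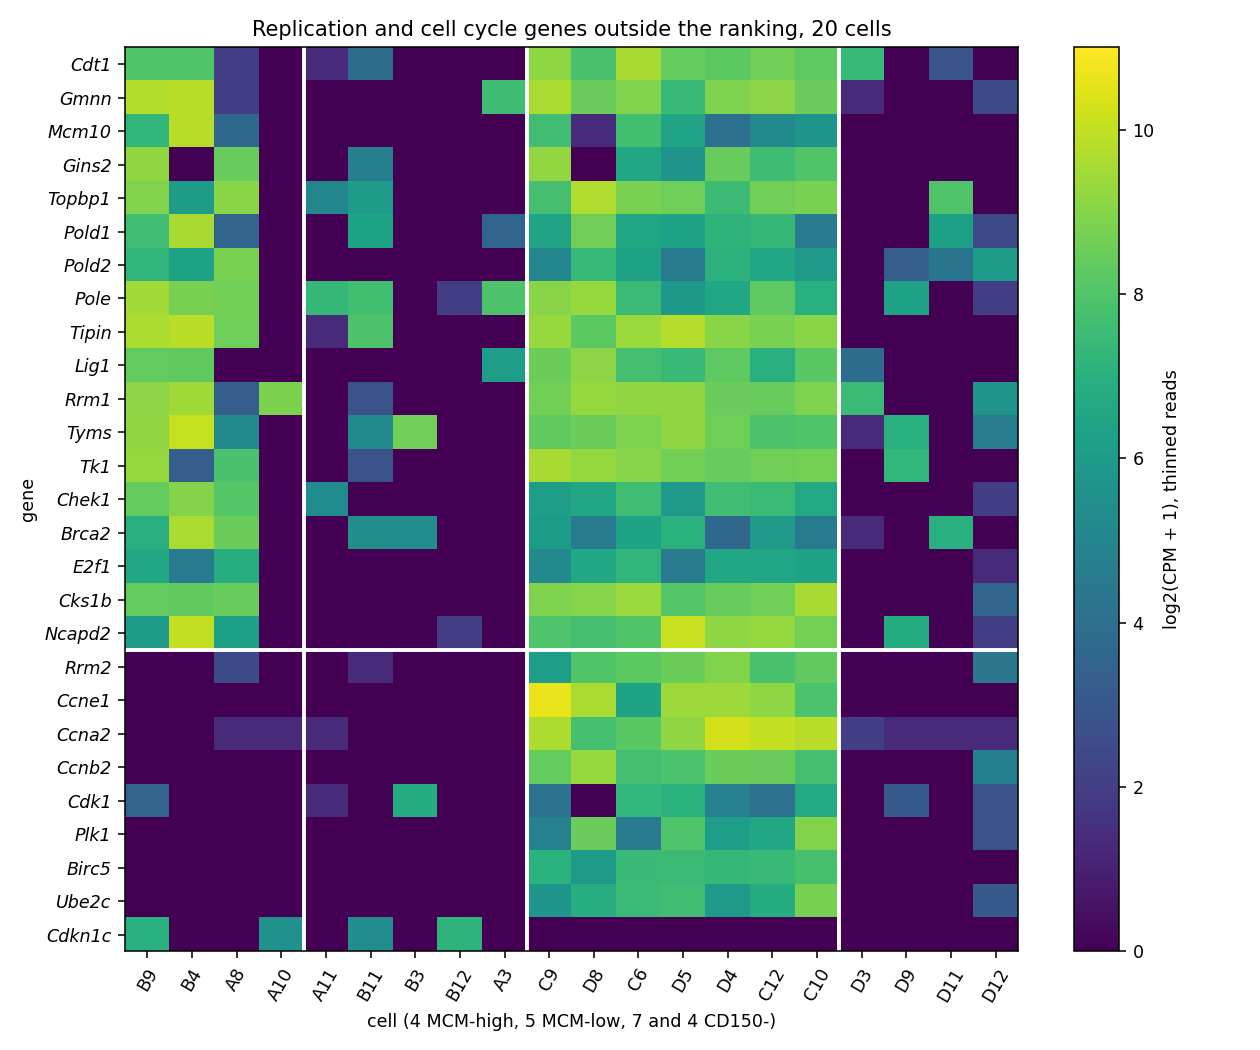
Level, as log2(CPM + 1), of 27 replication and cell cycle genes outside the ranking in the 20 cells (columns, white lines between the 4 MCM-high, 5 MCM-low, 7 and 4 CD150- cells). Genes above the white row line are bright in most of B9, B4 and A8 and dark in A10 but for Rrm1, and those below it from Rrm2 to Ube2c are dark in nearly all 9 cells and bright in the 7 CD150- cells.

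G1 cyclins, CDK inhibitors and RB and E2F genes gave mixed values. G1 cyclins and CDKs took 0.154% of gene reads in MCM-high and 0.165% in MCM-low cells (log2 ratio -0.10, or 0.27 without A10 and 0.48 under spike-in scaling). Ccnd2, a cyclin D, had 614, 198, 217 and 3.03 CPM in B9, B4, A8 and A10 and 136 to 1153 CPM in MCM-low cells. Its kinase Cdk4 had 1170 and 1174 CPM in B9 and A8, 57.6 in B4, 1.52 in A10 and 3.03 to 855 CPM in MCM-low cells. These ranges overlapped widely. Ccnc, cyclin C, was the only gene of this list past 4-fold, through 471 CPM in B4 (log2 fold 4.05). Ccnd1 had 59.5 against 33.6 CPM. Cdk7, the CDK-activating kinase, was read in A8 at 54.5 CPM, in B11 at 135 CPM and in A3 at 1.52 CPM, and its log2 fold of -0.95 was 3.41 without B11. Mnat1, of the same kinase, had 39.4 CPM in A10, 3.03 in B9, 33.3 in B11 and 97.0 in B3, and its log2 fold of -1.22 was 0.31 without B3 and 0.35 under spike-in scaling, so both genes changed sign with 1 cell left out.

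Of the 8 CDK inhibitor genes 3 passed the filter. Cdkn1b, the p27 gene, had 10 reads in MCM-high and 9 reads in MCM-low cells, a ratio of 1.39 (0.507 to 3.86). Cdkn2d, the p19 gene, had 3.41 against 61.8 CPM, of which 303 CPM in A11, and without A11 its log2 fold was 0.81. With Cdkn1c in 2 cells of each set, none of the 3 separated the sets. E2f1, an activator of S phase genes, had 97.0, 22.7, 115 and 0 CPM in B9, B4, A8 and A10 and no read in MCM-low cells. E2f4 had 171, 3.03, 217 and 0 CPM, and up to 68.2 CPM in MCM-low cells. E2f5 had no read in MCM-high cells and 176 CPM in A3, and Rbbp4, a histone chaperone of RB complexes, 1 read against 130 reads. The log2 share ratio of the RB and E2F list was 1.14, or 0.52 without A10. Of 11 genes past the filter 3 were at least 4-fold higher (27.3%, against 13.9% of all genes) and 3 lower (27.3%, against 18.3%). The RB and E2F share of A10, 0.323%, was the highest of the 9 and came mainly from the E2F partner gene Tfdp2, at 1886 CPM there.

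Chromatin assembly and maintenance methylation, which packs and marks new DNA, had a log2 share ratio of 0.45 (0.76 without A10), with 3 of 14 genes at least 4-fold higher (21.4%, against 13.9% of all genes) and 1 lower (7.14%, against 18.3%). Within letter A the ratio was -1.24 and within letter B 1.50. The histone chaperone Asf1a had 398 CPM in A10 and no more than 1.52 CPM in any other cell. H2afx, a histone that marks breaks, had 111 and 28.8 CPM in B9 and A8, 6.06 in A10 and 7.58 in B3. Hmgb1, an abundant chromatin protein, had 122 against 238 CPM (log2 fold -0.96).

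Growth genes differed less than replication genes. MYC and ribosome biogenesis genes took 0.674% of gene reads in MCM-high and 0.567% in MCM-low cells (log2 ratio 0.25, or 0.47 without A10, -0.25 within letter A and 0.65 within letter B). Of 43 genes past the filter 7 were at least 4-fold higher and 2 lower, 16.3% and 4.65%, near or below the shares of all genes. Tsr1, which matures the small ribosomal subunit and whose promoter stretch is shown above, did not overlap, with 132, 288, 45.5 and 509 CPM in B9, B4, A8 and A10 and at most 28.8 CPM in MCM-low cells (mean ratio 17.5, 12.9 to 24.1). Polr1a, the large subunit of RNA polymerase I, had 430 CPM in A8 and at most 21.2 CPM elsewhere, and the nucleolar methyltransferase Nop2 626 and 362 CPM in B4 and A8. Nop58, of the box C/D particles, had 22.3 against 170 CPM, and Noc4l 3.41 against 30.0 CPM, with 139 CPM in B3.

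Translation factors took 1.95% against 2.64% of gene reads (log2 ratio -0.44, but 0.28 under spike-in scaling). Eif3e, a subunit of initiation factor eIF3, was lower in all MCM-high cells, with 458, 564, 833 and 497 CPM in B9, B4, A8 and A10 and 2620, 1476, 1856, 1405 and 1348 CPM in A11, B11, B3, B12 and A3. The transcript was abundant in every cell, and the MCM-low mean was 2.96-fold higher (2.80 to 3.13). Eif6 had a high mean through 2158 CPM in A10 and a log2 fold of 3.11 that was -0.28 without it. Nuclear genes of oxidative phosphorylation took 0.828% to 1.56% in MCM-high and 0.727% to 1.10% in MCM-low cells (log2 ratio 0.41, or 0.56 without A10, when the ranges did not overlap). Of 74 genes past the filter, 8 were at least 4-fold higher (10.8%, under the 13.9% of all genes) and none lower (against 18.3%). In complex I, Ndufa10 had 3.03, 677, 78.8 and 120 CPM in B9, B4, A8 and A10 and at most 51.5 CPM in MCM-low cells. Glycolysis genes took equal shares within the spread of the cells (log2 ratio -0.066), and Pdk2, a kinase that restrains pyruvate oxidation, had no read in MCM-high cells but 1421, 506 and 273 CPM in A11, B3 and B12, at least 387-fold lower. Gapdh has many near-identical copies in the genome, so its count is uncertain and no direction is given.

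Stem cell genes were lower in B9, B4 and A8 than in any MCM-low cell, while A10 lay among the MCM-low cells. The 41 genes took 0.559%, 0.926%, 0.607% and 1.31% of gene reads in B9, B4, A8 and A10 and 0.990% to 1.89% in MCM-low cells, a log2 ratio of -0.68 (-0.97 without A10, -0.84 within letter A and -0.60 within letter B) that was -0.060 under spike-in scaling. Of 33 genes past the filter 10 were at least 4-fold lower (30.3%, against 18.3% of all genes) and 3 higher (9.09%, against 13.9%). All 9 cells were above the 7 CD150- cells, at 0.0900% to 0.185%. Mllt3, a chromatin reader needed to maintain blood stem cells, had 174, 118, 83.3 and 139 CPM in B9, B4, A8 and A10 and 1721, 271, 518, 594 and 2255 CPM in A11, B11, B3, B12 and A3. All 9 cells had it, and the MCM-low mean was 8.32-fold higher (7.44 to 9.33). Myct1, a surface protein gene of stem cells and endothelium, had 177, 53.0, 39.4 and 15.2 CPM against 236 to 358 CPM, and Trim47, a ubiquitin ligase, 0, 0, 9.09 and 6.06 CPM against 21.2 to 377 CPM. For these 3 of the 33 genes the sets did not overlap, against 0.445% of all genes in this direction. This list too was drawn up with earlier results of these data known, so the count is no independent evidence.

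Other stem cell genes varied by cell. Hoxa9, a homeobox factor of early progenitors, had 24.2 CPM or less in MCM-high cells and 156, 668 and 485 CPM in B11, B12 and A3, but 0 and 1.52 CPM in A11 and B3. Hlf, a stem cell transcription factor, had 394, 0, 1.52 and 518 CPM in B9, B4, A8 and A10 and 159 to 1041 CPM in MCM-low cells, and Mecom 332, 0, 16.7 and 0 CPM against 0 to 1058 CPM. Meis1, a homeobox factor, was present in all 9, with 197 to 526 CPM in MCM-high and 6.06 to 1024 CPM in MCM-low cells. These levels overlapped. Ltb had no read in MCM-high cells and 173 and 112 CPM in A11 and A3. Hlf, Mecom and Meis1 were picked from the markers listed for stem cells.

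Genes of quiescence and cell cycle exit took 0.193%, 0.212%, 0.231% and 0.316% in B9, B4, A8 and A10 and 0.248% to 0.447% in MCM-low cells (log2 ratio -0.56, or -0.72 without A10, when the ranges did not overlap, and 0.13 under spike-in scaling). Of 23 genes past the filter 3 were at least 4-fold lower (13.0%, under the 18.3% of all genes) and 1 higher (4.35%, against 13.9%). Ccng2, a cyclin of arrested cells, had no read in MCM-high cells and 25.8, 124, 69.7, 0 and 329 CPM in A11, B11, B3, B12 and A3, a mean at least 96.5-fold above the MCM-high floor. B12 thus lacked it as well. Foxo4, of the FOXO factors, had 4.55 CPM or less in MCM-high cells and 129 and 75.8 CPM in A11 and A3. Tob1, an antiproliferative gene, went the other way through 189 CPM in A10 (log2 fold 4.81, or 2.08 without it).

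Signalling lists showed few differences that held over the cells. Cytokine receptor genes took 0.205% against 0.333% of gene reads (log2 ratio -0.70), with 6 of 17 genes at least 4-fold lower (35.3%, against 18.3% of all genes) and 1 higher (5.88%, against 13.9%). Flt3, a receptor of multipotent progenitors, had 1.52 CPM in B9 and 0 in B4, A8 and A10, and 115 and 306 CPM in B11 and A3. Csf3r, the G-CSF receptor, had 6.06 CPM or less in MCM-high cells and 71.2, 273 and 74.2 CPM in B11, B3 and A3. The stem cell factor receptor Kit, a gate marker, had 422 against 749 CPM (log2 fold -0.82). Tek was higher by the mean through 364 CPM in B4. Interferon and MHC class I genes gave a ratio of 0.090 (-0.31 without A10) with 8 of 27 genes 4-fold lower (29.6%, against 18.3% of all genes) and 3 higher (11.1%, against 13.9%). Oas1a, an interferon-induced antiviral enzyme, had no read in MCM-high cells and 323, 69.7 and 74.2 CPM in A11, B11 and A3, and Tap2, a peptide transporter, 170 and 329 CPM in B4 and A8. Usp18 had 2 reads against 127 reads, and Ifit2 had 1027 CPM in B4. Immediate early genes had a ratio of -0.71 that was 0.064 within letter A, 0.029 under spike-in scaling and -1.49 within letter B. Zfp36 had no read in MCM-high cells and 77.3, 18.2 and 78.8 CPM in B11, B12 and A3, and Ier2 had 182, 74.2, 10.6 and 0 CPM in B9, B4, A8 and A10 and at most 3.03 CPM in MCM-low cells. Imprinted growth-control genes had a ratio of 0.33, with none of 9 genes 4-fold higher (against 13.9% of all genes) and 1 lower (11.1%, against 18.3%), Sgce, at a log2 fold of -3.08.

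Markers of other blood lineages were read beside these lists. Megakaryocyte and platelet genes took 0.106%, 0.525%, 0.821% and 0.387% in B9, B4, A8 and A10 and 0.211% to 0.370% in MCM-low cells (log2 ratio 0.78, with 1.39 within letter A and 0.11 within letter B). Of 16 genes past the filter 7 were at least 4-fold higher (43.8%, against 13.9% of all genes) and none lower (against 18.3%). Itgb3, a platelet integrin, had 0, 147, 586 and 7.58 CPM and no read in MCM-low cells. Pf4, a platelet chemokine, had 517 and 648 CPM in B4 and A8, 0 in B9 and A10 and 51.5 and 30.3 CPM in B3 and A3, and the integrin Itga2b 311 and 770 CPM in B4 and A8 against 233 CPM or less. B9, the cell with the highest ranking share, had the lowest megakaryocyte share of the 9. P2rx1, with 44.3 against 140 CPM, and Nfe2, with 64.4 against 148 CPM, were lower by the mean, P2rx1 not under spike-in scaling (0.29). The part of the megakaryocyte genes in the other differences of B4 and A8 was not tested.

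Erythroid genes took 0.0539% to 0.153% in MCM-high and 0.162% to 0.340% in MCM-low cells, ranges that did not overlap (log2 ratio -1.28), far under the 1.43% to 3.01% of the 7 CD150- cells. Car2, a carbonic anhydrase, had the most reads of the list in MCM-low cells, with 261, 98.5, 456 and 156 CPM in B9, B4, A8 and A10 and 232, 2879, 1224, 535 and 1352 CPM in A11, B11, B3, B12 and A3. The share without Car2 was not computed, so whether the ranges stay apart without it is not known. Of 10 genes past the filter 2 were at least 4-fold higher (20%, against 13.9% of all genes) and 4 lower (40%, against 18.3%). Their median log2 fold was -0.47, or -0.069 without A10. Under spike-in scaling the share ratio was -0.68. Of the 34 erythroid genes 13 had no read in the 9 cells, Hbb-bs among them. Neutrophil and monocyte genes took 0.0183% to 0.149% against 0.0332% to 0.0980%, and 9 of 23 had no read. Lyz2, lysozyme, had 1265 CPM in B4 and 22.7 to 229 CPM in the other MCM-high cells, and Prtn3, proteinase 3 of granules, 9.09, 0, 0 and 120 CPM against 229 to 347 CPM in MCM-low cells. Lymphoid genes took 0.0136% to 0.0691% against 0.0332% to 0.0977%, with 18 of 28 at 0. Mast cell genes took 0.0115% to 0.0380% against 0.0139% to 0.139%, with 10 of 14 at 0, and stroma and endothelium genes 0% to 0.0359% against 0.000303% to 0.0659%, with 7 of 15 at 0. Their part in the differences was not tested.

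**Figure D4:**
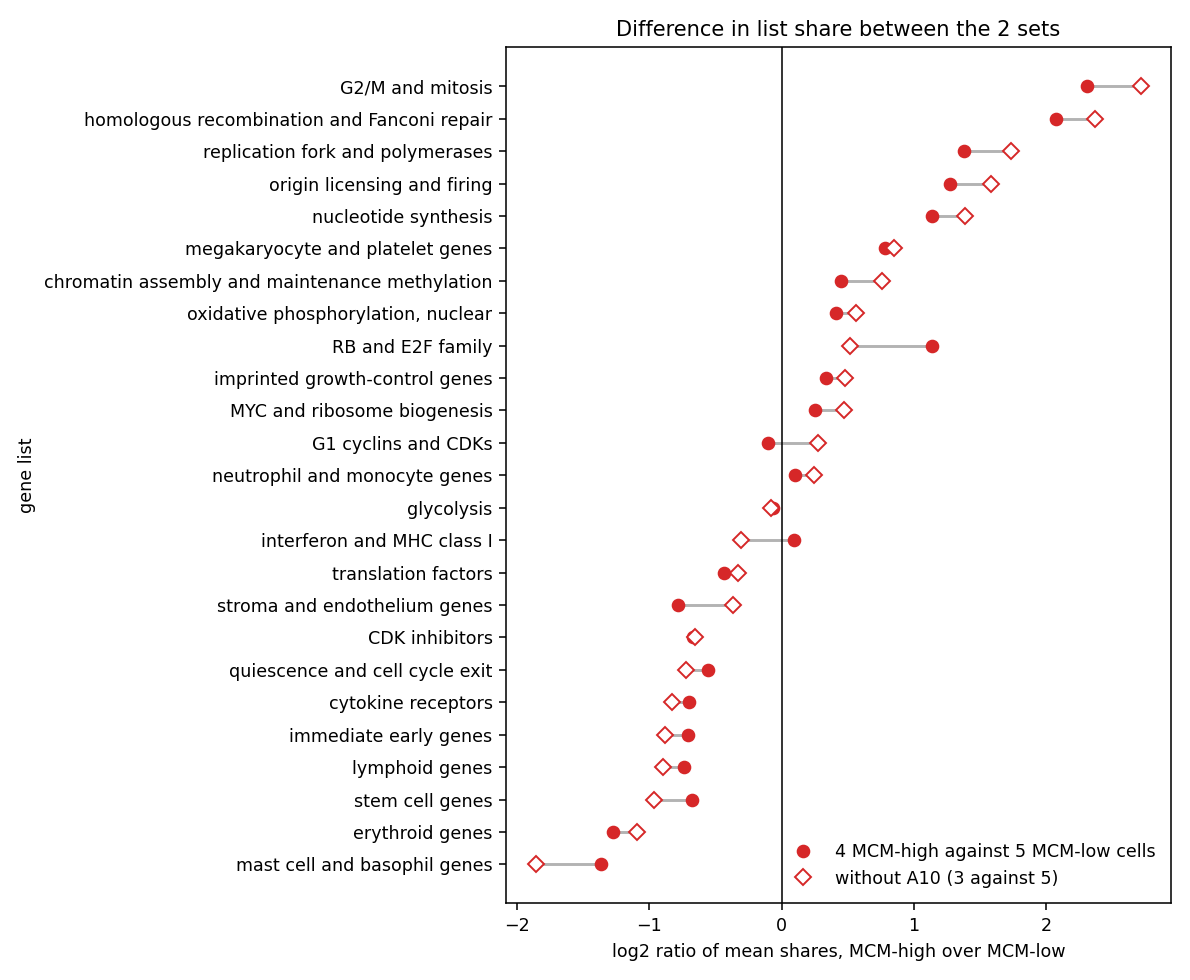
Log2 ratio of the mean list share in MCM-high over MCM-low cells for 25 gene lists, with all 4 MCM-high cells (filled circles) and without A10 (open diamonds). Licensing, fork, nucleotide, repair and G2/M lists lie at 1.14 to 2.31 with A10, and stem cell, quiescence, receptor and erythroid lists lie left of 0, the stem cell list at -0.68.

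The genes whose ranges did not overlap include members of the lists, Rrm1 and Tsr1 among the higher ones and Eif3e, Mllt3, Trim47, Myct1 and Prtn3 among the lower ones. Of the 34 that were higher, 5 are pseudogenes or genes known by a clone or model name alone, among them Pcna-ps2, a copy of the ranking gene Pcna whose reads cannot be told apart from it with certainty. The 12 with the largest difference of medians are Ciao2a, Rrm1, Clcc1, Snhg5, Ap4s1, Slc25a22, Maip1, Kdelr2, Gt(ROSA)26Sor, Cpsf4, Heatr6 and Pidd1, in that order. Ciao2a (chr9:66126611-66138955), which takes part in iron-sulfur cluster assembly, had 680, 456, 583 and 330 CPM in B9, B4, A8 and A10, 212 in B11, 1.52 in A3 and 0 in the other MCM-low cells (mean ratio 12.0, 10.1 to 14.4). Clcc1 (chr3:108653913-108678840), a channel protein of the endoplasmic reticulum, had 93.9, 582, 336 and 232 CPM and 1 read in the MCM-low set, in B11. Snhg5 (chr9:88521050-88522929), a host gene of small nucleolar RNAs, had 289, 1114, 1003 and 242 CPM against 33.3 CPM or less, a ratio of 78.0 (53.8 to 118). All 4 MCM-high cells had these transcripts, A10 included, because the choice by non-overlap requires it.

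Kdelr2, a receptor that returns proteins to the endoplasmic reticulum, had 102, 709, 59.1 and 106 CPM against at most 27.3 CPM, and Ap4s1, a subunit of a vesicle adaptor, 48.5, 188, 373 and 223 CPM against at most 39.4 CPM. Maip1, a mitochondrial matrix protein, had 156, 194, 25.8 and 264 CPM against 1 read in B11. Slc25a22 (chr7:141429744-141437892), a mitochondrial glutamate carrier, had 111, 259, 212 and 145 CPM against 66.7 CPM in B11 and 1.52 CPM in B12. Its neighbour Pidd1 (chr7:141438113-141444025), a p53-induced gene, had 86.4, 133, 21.2 and 33.3 CPM against 10.6 CPM in A3. Cpsf4, of the mRNA 3′ end machinery, had 150, 289, 9.09 and 31.8 CPM against 7.58 CPM in B3, Heatr6 43.9, 418, 9.09 and 90.9 CPM against no read, and Gt(ROSA)26Sor 33.3, 412, 170 and 15.2 CPM against at most 6.06 CPM. The lowest MCM-high cell of these was A8 for Cpsf4 and Heatr6 and A10 for Gt(ROSA)26Sor.

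Further down this group, and picked after their values were seen, are genes that act on DNA, chromatin or the cytoskeleton. Slf1, which recruits a repair complex to stalled forks, had 144, 209, 108 and 368 CPM in B9, B4, A8 and A10 and at most 27.3 CPM in MCM-low cells (ratio 15.9, 11.6 to 22.2). Casp8ap2, a protein needed for histone transcript processing, had 28.8, 468, 13.6 and 3.03 CPM and no read in MCM-low cells, with 2 thinned reads in A10. Both have an octamer in the promoter stretch printed above. Stmn1, a microtubule regulator of dividing cells, had 873, 498, 570 and 417 CPM against 60.6, 218, 242, 0 and 302 CPM in A11, B11, B3, B12 and A3. Psip1, a chromatin-bound coactivator, had 836, 755, 632 and 636 CPM against 132 to 541 CPM, and Hnrnpd, an RNA-binding protein, 765, 609, 470 and 555 CPM against 36.4 to 452 CPM. Their mean ratios were small, 3.58 (3.25 to 3.96) for Stmn1, 2.30 (2.13 to 2.48) for Psip1 and 2.68 (2.45 to 2.93) for Hnrnpd, but the levels were even over the 4 cells.

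**Figure D5:**
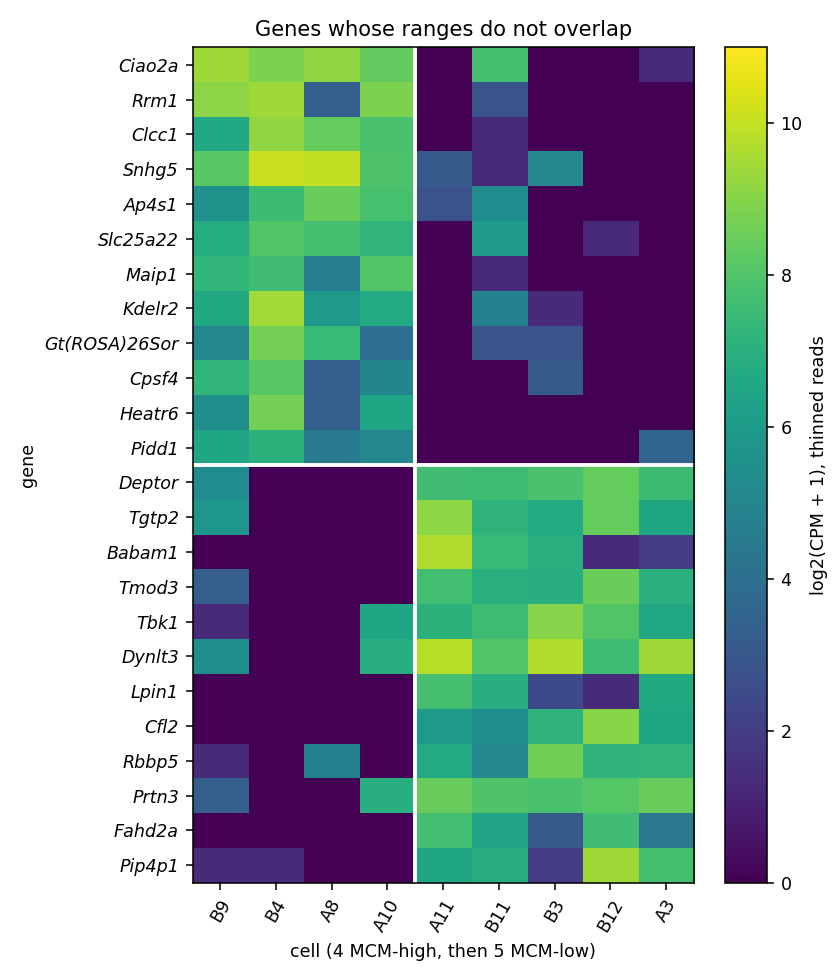
Level, as log2(CPM + 1), of the 24 named genes whose ranges did not overlap, in the 4 MCM-high and 5 MCM-low cells (columns). The 12 upper genes are bright on the left and the 12 lower ones on the right because non-overlap chose them.

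Of the 37 genes that were lower, the 12 with the largest difference of medians are Deptor, Tgtp2, Babam1, Tmod3, Tbk1, Dynlt3, Lpin1, Cfl2, Rbbp5, Prtn3, Fahd2a and Pip4p1. Deptor (chr15:55112317-55259271), a binding partner that inhibits the growth kinase mTOR, had 39.4 CPM in B9, 0 in B4, A8 and A10 and 197, 189, 226, 335 and 186 CPM in A11, B11, B3, B12 and A3. Its level was even over the MCM-low cells, and the log2 fold was -4.39. Tmod3 (chr9:75497707-75559657), which caps actin filaments, had 9.09 CPM in B9, 0 in the other MCM-high cells and 123 to 365 CPM in MCM-low cells, and Tbk1, a kinase of innate immunity, 1.52, 0, 0 and 87.9 CPM against 97.0 to 511 CPM. Dynlt3, a dynein light chain on the X chromosome, had 43.9, 0, 0 and 123 CPM against 191 to 894 CPM. Tgtp2, an interferon-induced GTPase with a near-identical neighbour, Tgtp1, between which reads may be split, had 54.5 CPM in B9, 0 in the other 3 and 86.4 to 567 CPM, and is uncertain.

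Babam1, of a BRCA1 complex, Lpin1, a lipid phosphatase, Cfl2, a cofilin, and Fahd2a had no read in the 4 MCM-high cells. In MCM-low cells Babam1 had 824, 168, 127, 1.52 and 3.03 CPM in A11, B11, B3, B12 and A3, so B12 and A3 were near the floor, and Lpin1 had 1.52 to 217 CPM. Cfl2 had 40.9 to 520 CPM and was read well in all 5, at least 150-fold higher than the MCM-high floor. Fahd2a had 7.58 to 209 CPM. Rbbp5, a subunit of histone H3 methyltransferases, had 1.52, 0, 27.3 and 0 CPM in B9, B4, A8 and A10 against 33.3 to 392 CPM, and Pip4p1, a phosphoinositide phosphatase, 2 reads in the MCM-high set against 3.03 to 686 CPM. Etv6, a transcription factor that blood stem cells need, had 211, 324, 74.2 and 86.4 CPM against 362 to 1014 CPM and was picked after its values were seen. A10 held most MCM-high reads of Tbk1 and Prtn3, and without it their log2 folds were -7.31 and -6.17 in place of -3.35 and -3.13.

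The 11 CD150- cells, which were not used to choose these genes, were split at the same gap in the ranking share, 7 against 4, as a description. There 19.7% of the 8312 genes were at least 4-fold higher in the 7 cells and 18.6% at least 4-fold lower. Of the 34 genes higher in MCM-high cells, 11 (32.4%) were 4-fold higher in the 7 cells and 2 (5.88%) lower, with a median log2 fold of 1.34 against 0.015 over all genes. Of the 37 lower genes, 13 (35.1%) were 4-fold lower and 3 (8.11%) higher, with a median of -1.02. Ciao2a, Slc25a22, Maip1, Cpsf4, Pidd1, Kdelr2 and Rrm1 were among the former, at log2 folds of 6.09, 5.51, 4.79, 4.72, 5.20, 2.74 and 3.01, whereas Ap4s1 went the other way at -3.64. The 11 also include Pcna-ps2, at 2.84. Its reads cannot be told apart with certainty from those of the ranking gene Pcna, so its direction is not independent of the split. Of the lower genes Deptor had -3.84, Prtn3 -7.68 and Myct1 -8.78 there, and Mllt3 -0.47. Rbbp5, lower in MCM-high cells, was higher in the 7, at 6.27. The 7 CD150- cells also had the erythroid share given above, so ranking share and erythroid genes cannot be told apart there.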

How the data were processed

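The authors deposited raw counts of reads per gene for each cell, made with HTSeq and R 3.0.2 on GRCm38, per the submitters' processing notes. The aligner and annotation used were not given in the sources used here. Counts covered 38561 genes, and HTSeq's 5 summary rows and 51 ERCC rows were left out of totals. Python 3.11.15, numpy 2.4.6, pandas 2.3.3, scipy 1.17.1 and edgeR 4.0.16 (TMM only, R 4.3.3) were used. Reads were thinned without replacement to 660007 per cell. Levels are summed thinned reads as CPM with exact Poisson intervals, and folds have exact conditional binomial intervals. The pseudocount was 1 CPM, which understates differences of low genes. Reads with several alignments were uncounted, so genes with close copies are undercounted, and strand is not stated, so overlapping genes cannot be told apart. With 0 reads in a set, the floor was 3 reads over the set (1.14 CPM in MCM-high and 0.909 CPM in MCM-low cells). The cells and the 25 lists were chosen with earlier results of these data known, and 745 of 751 list symbols matched. Named genes are the ranking genes, Cdkn1c, 12 non-overlapping genes in each direction, with pseudogenes and genes known by a clone or model name alone passed over, and list members with the 2 highest and 2 lowest log2 folds or no overlap. Coordinates are from GENCODE M21. The steps were tested on simulated counts. Some genes are not reported here.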

Additional observations from a re-analysis of the deposited data

Results flagged for a closer look

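In 3 of 64 sets of values examined, 1 cell lay far from the others of its set, and chance gives about 5% of such sets. The share of stroma and endothelium genes was 0.0359% in B4, the highest of the 4 MCM-high cells, and 0.0659% in B3, the highest of the 5 MCM-low cells. At equal depth 8703 genes were detected in B11, above the other 4 MCM-low cells.

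The log2 share ratio of 2 lists had opposite signs in the cells of letters A and B. For chromatin assembly and maintenance methylation it was -1.24 in letter A, with A8 and A10 against A11 and A3, and 1.50 in letter B. For imprinted growth-control genes it was -0.47 and 0.96. Neither difference was tested.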

How the results depend on the processing

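Genes at least 4-fold higher and lower numbered 2072 and 2642 with no filter, 509 and 704 with at least 50 reads and 5 cells, 732 and 894 with a pseudocount of 10 CPM, and 1886 and 1007 under spike-in (ERCC) scaling. Letter A alone gave 2373 higher. Non-overlapping genes, higher and lower, numbered 104 and 9 under ERCC scaling, 1083 and 818 in letter A and 648 and 439 in letter B, where fewer cells make non-overlap easier. Leaving out 1 cell gave 1109 to 1769 genes 4-fold higher (highest without B11), 1423 to 2206 lower (highest without B9), 44 to 197 non-overlapping higher (141 without B4, 197 without A10) and 46 to 90 lower.

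Log2 list ratios under ERCC scaling were 2.12 for RB and E2F, 0.89 for MYC and ribosome biogenesis, 0.28 for translation factors, 1.10 for oxidative phosphorylation, 0.52 for glycolysis, 0.48 for G1 cyclins and CDKs, -0.060 for stem cell genes, 0.13 for quiescence, 0.029 for immediate early genes, 0.73 for interferon and MHC class I and -0.68 for erythroid genes. In letter A they were 0.12 for origin licensing, 0.30 for the fork, -1.24 for chromatin assembly (1.50 in letter B), -0.25 for MYC, -0.47 for imprinted genes and 0.064 for immediate early genes (-1.49 in letter B). Leaving out 1 cell gave 0.87 to 1.58 for licensing, 0.91 to 1.74 for the fork, -0.050 to 0.76 for chromatin assembly, 1.81 to 2.37 for recombination, 1.78 to 2.72 for G2/M, -0.97 to -0.52 for stem cell genes, -0.72 to -0.45 for quiescence and -4.63 to 1.29 for stroma and endothelium genes (lowest without B4).

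Among named genes past 4-fold, these changed sign under an alternative. In letter A the log2 fold was -0.90 for Gins3, 5.04 for Mthfd1l, -0.81 for Ndufa9, -0.49 for Pfkp, -3.06 for Ctnnal1, -2.61 for Ifit2, 0.81 for Usp18, -1.59 for Tek and 1.66 for Il4. In letter B it was 4.42 for Prim2, 0.15 for Kif23, 0.84 for Nop58, -1.14 for Eif6 and 1.12 for Foxo4. As a mean of log2 values it was 0.87 for Prim2 and 0.48 for Mthfd1l. Leaving out 1 cell gave -3.46 to 4.64 for Prim2 and -5.38 to 0.81 for Cdkn2d (highest without A11), -2.92 to 2.03 for Mthfd1l, -4.95 to 0.27 for Noc4l and -4.45 to 0.28 for Gapdh, whose count is uncertain (highest without B3), -0.68 to 6.63 for Mre11a and -0.68 to 3.95 for Ndufa9 (lowest without B9), -0.28 to 3.72 for Eif6 (lowest without A10), -1.43 to 3.27 for Ctnnal1, -0.83 to 4.63 for Ifit2 and -0.70 to 4.11 for Tek (lowest without B4) and -4.91 to 1.25 for Il4 (highest without B12). Of 25 named genes under 4-fold, 13 took both signs when 1 cell was left out, among them Cdk7, Nkg7, Ndufs7, Phlda2, Cxcr4, Cdkn1c and Mnat1. The cause was not tested. No paired analysis was possible because replicate numbers follow accession order and no test was made. With 4 and 5 cells, and 1 read at 1.52 CPM, differences of low genes were not detectable.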
